A study of Mus musculus with 18 samples.

Results

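The 70 genes described here had more nuclear RNA in mouse embryonic stem cells labelled as lacking Ythdc1 and also in cells labelled as lacking Mettl3. METTL3 is the catalytic subunit of the enzyme that writes N6-methyladenosine (m6A), the most common internal mark of messenger RNA, and it does so on nascent RNA in the nucleus. YTHDC1 is the reader of that mark that resides in the nucleus, where it is known for roles in splicing, export and turnover of nuclear RNA, transcripts of repeats included. The members are therefore read across both experiments, on the writer and on the reader of the mark.

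Members were chosen on read counts per 1000000 gene reads (CPM), averaged over the 2 libraries of a group. An autosomal gene was eligible at 1 CPM or more in the Ythdc1 cKO group without drug and in at least 1 of the Mettl3 KO groups, which left 14028 of 50188 autosomal genes (54446 genes in all). It became a member if its CPM was at least 7/4 of the control's in the Ythdc1 experiment (0.81 on the log2 scale) and the mean of its log2 ratios in KO1 and KO2 over the Mettl3 control (0.1 CPM added) was at least 0.8. Taken by itself, the Ythdc1 threshold was met by 862 eligible genes and the Mettl3 threshold by 687. The 70 members are 8.12% of the first and 10.2% of the second, beside 4.90% and 6.14% of all eligible genes past the opposite threshold, and 199 genes past the Ythdc1 threshold lay at a mean log2 ratio of -0.8 or lower in the Mettl3 experiment. These values chose the members and are given as a description. The median fold of cKO over control was 2.36, and the median of the mean log2 ratios of KO1 and KO2 over their control was 1.10 (0.83 to 2.32). Just inside the thresholds lay 1500011B03Rik (1.78-fold), Htra1 (1.77-fold) and Gm42449 (1.76-fold), and just outside lay Raet1e and Serpinb1b, which missed the Ythdc1 threshold by less than 0.01 on the log2 scale, and Ccdc136, at 1.84-fold with a mean log2 ratio of 0.80.

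**Figure D1:**
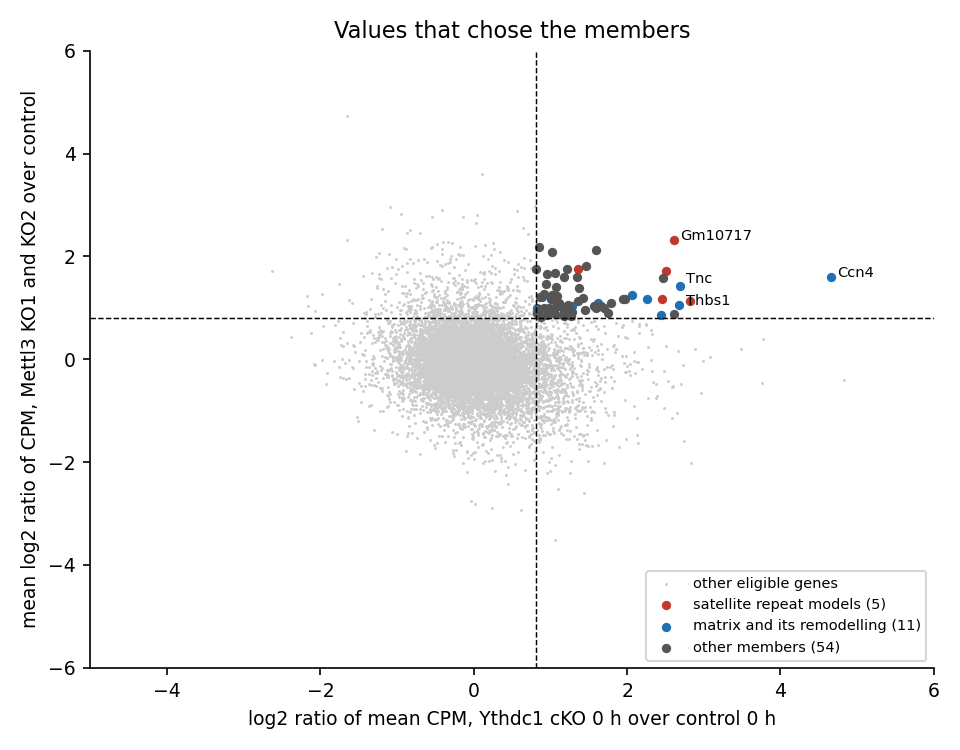
Each point is an eligible gene, placed by the log2 ratio of mean CPM in the Ythdc1 experiment (x axis) and the mean log2 ratio over both Mettl3 KO groups (y axis); dashed lines mark the thresholds. The 70 members fill the upper right corner by construction, with Ccn4 farthest to the right on a control value that rests on 1 read.

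The study measured total RNA of isolated nuclei in 18 libraries, 2 for each of 9 groups, from C57BL/6 cells grown in serum with LIF and the inhibitors CHIR99021 and PD0325901. In the Ythdc1 experiment, cells with the genotype labels Control and cKO (conditional knockout) were collected after 0, 3 or 6 h in actinomycin D, a drug that blocks transcription, at 5 µg/ml, added after 48 h of culture. In the Mettl3 experiment, cells labelled Control, KO1 and KO2 were collected at time 0. What drives the Ythdc1 deletion, and whether KO1 and KO2 are single clones, is not stated in the labels. The labels do not say that the 2 libraries of a group came from separate cultures, so p-values measure the spread between these samples, which may be technical. In such bulk samples, fewer cells of a kind and less RNA per cell cannot be told apart.

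The targeted genes were checked in every library. Ythdc1 stood at 151 and 138 CPM in the control without drug and at 145 and 124 CPM in the libraries labelled cKO, a log2 change of -0.07 ± 0.08 (SE, adjusted p = 0.557). After 3 h it stood at 53.1 and 51.1 CPM in the control and 14.7 and 15.4 CPM in cKO (-1.78 ± 0.09, adjusted p = 1.13e-17), and after 6 h at 47.1 and 42.9 against 19 and 18.4 CPM (-1.38 ± 0.10, adjusted p = 1.08e-13). Mettl3 stood at 37.5 and 32.8 CPM in its control, 32.3 and 30.9 CPM in KO1 (-0.10 ± 0.08, adjusted p = 0.316) and 22.2 and 21.7 CPM in KO2 (-0.61 ± 0.08, adjusted p = 7.45e-10). The counts cover the whole gene and the labels do not state which part is deleted, so neither the undrugged cKO libraries nor KO1 are checked by these values, and the groups are named by their labels throughout.

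Gene reads per library ranged from 4950973 to 30989044, so 3 reads were worth between 0.0968 and 0.606 CPM. All 10 markers of embryonic stem cells were at 1 CPM or more in every group. Spike-in RNA gave 272 and 277 reads per 1000000 gene reads in the cKO 3 h libraries and 772 to 1889 in the other 10 Ythdc1 libraries. Fold changes below are set against the typical gene of a library. Scaling to the spike-ins instead would shift the median gene by 2.00 on the log2 scale for cKO against control at 3 h, by -0.44 at 6 h, by -0.38 and -2.85 for 6 h against 3 h in the control and in cKO, and by -0.38 for KO1 against KO2, so a difference is a change relative to that shift and not an absolute amount. Changes were tested with edgeR's quasi-likelihood test, with Benjamini-Hochberg adjustment over 17900 genes (Ythdc1) or 21802 genes (Mettl3), and called at an adjusted p under 0.05. A rise or fall in cKO at 3 or 6 h means higher or lower than the control at that time, unless 2 times are compared.

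All 70 members were tested in both experiments, and 68 would have passed the filter on low counts without the cKO 0 h libraries that helped to choose them. Members were sparse: their median level was 1.43 CPM in the undrugged Ythdc1 control and 1.51 CPM in the Mettl3 control, beside 20.2 and 20.5 CPM for all eligible genes. It was 4.2 CPM in cKO without drug, 3.49 CPM in KO1 and 4.24 CPM in KO2. By annotation 54 members are protein-coding, 10 are TEC models (loci with transcript evidence that still await experimental checks), 2 are lincRNAs, 2 are sense intronic RNAs, 1 is a processed transcript and 1 an unprocessed pseudogene. TEC models make up 14.3% of members and 5.33% of eligible genes. The median exonic length was 4147 bases, beside 4148 bases for eligible genes. The letters GGACT, a common form of the m6A consensus, occurred at a median of 0.875 per kilobase of the members' longest transcripts (sense strand), beside 1.01 for eligible genes, and at least once in 87.1% and 90.1% of them.

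Among the members are 5 gene models that lie in mouse major satellite, the tandem repeat of pericentromeric heterochromatin, which is rich in A and T. They are Gm10800 (mm10, chr2:98666547-98667301, minus strand) and Gm10801 (chr2:98662237-98664083, plus strand), which stand 2463 bases apart, Gm21738 (chr14:19415857-19418930, minus strand), Gm10717 (chr9:3025417-3033289, plus strand) and the lincRNA Gm26870 (chr9:3000282-3038313, minus strand), which overlaps Gm10717 on the other strand. The annotation calls 4 of them protein-coding. Their sequences show that the models are pieces of the same repeat. A transcript of Gm26870 opens with a pair of 234-base units that are 92.7% identical, with capitals at the 17 bases that differ.

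Gm26870 unit 1: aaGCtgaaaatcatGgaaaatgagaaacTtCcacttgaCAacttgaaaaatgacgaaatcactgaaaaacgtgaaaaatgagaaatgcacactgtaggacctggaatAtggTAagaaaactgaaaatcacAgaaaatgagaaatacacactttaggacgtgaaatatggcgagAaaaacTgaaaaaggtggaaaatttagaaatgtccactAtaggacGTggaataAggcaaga
Gm26870 unit 2: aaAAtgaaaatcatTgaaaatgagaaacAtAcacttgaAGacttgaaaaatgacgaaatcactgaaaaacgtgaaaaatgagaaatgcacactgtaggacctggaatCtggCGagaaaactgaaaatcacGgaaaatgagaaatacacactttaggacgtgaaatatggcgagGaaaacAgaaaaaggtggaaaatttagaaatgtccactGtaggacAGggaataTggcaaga

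The other models read the opposite strand of that repeat. The first 117 bases of each transcript (GENCODE M21, 5′ to 3′) are shown with capitals where a word of 12 bases also occurs in the reverse complement of the Gm26870 units, which covers 100% of the stretch in Gm10800, 83.8% in Gm10801, 88.9% in Gm10717 and 77.8% in Gm21738.

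Gm10800: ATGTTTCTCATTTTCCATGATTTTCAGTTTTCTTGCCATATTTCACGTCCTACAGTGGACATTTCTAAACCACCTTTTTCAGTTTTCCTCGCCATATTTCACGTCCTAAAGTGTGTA
Gm10801: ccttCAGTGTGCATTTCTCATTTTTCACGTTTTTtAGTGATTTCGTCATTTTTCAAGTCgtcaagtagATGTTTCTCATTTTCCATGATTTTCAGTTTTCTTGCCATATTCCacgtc
Gm10717: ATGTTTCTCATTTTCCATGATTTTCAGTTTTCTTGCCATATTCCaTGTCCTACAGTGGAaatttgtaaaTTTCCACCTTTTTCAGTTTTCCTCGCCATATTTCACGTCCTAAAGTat
Gm21738: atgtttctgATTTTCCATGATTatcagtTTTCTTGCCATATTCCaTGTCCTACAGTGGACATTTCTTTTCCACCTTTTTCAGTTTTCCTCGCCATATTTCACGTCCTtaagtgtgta

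None of these stretches holds GGACT on either strand, which says only that those letters are not in them. Because the models share sequence, they are repeated readings of 1 repeat family and not 5 independent genes. Reads that aligned to several places were set apart by the authors and enter no gene, so the counts cover the uniquely placed part of the repeat, and reads placed elsewhere in it were not analysed here. How the counting treated strand is not stated, so reads from the strands of Gm26870 and Gm10717 may not have been separated.

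After 3 h of drug satellite RNA was higher in the cKO libraries than in the control, and after 6 h it was lower. The 0 h values belong to the rule and are given as a description. Gm10800, the model that took most of these reads, stood at 16.6 and 16.7 CPM in the control and 112 and 71.6 CPM in cKO without drug. After 3 h it stood at 68.2 and 36.4 CPM in the control and at 363 and 317 CPM in cKO. The cKO level was above the control at 3 h by 2.72 ± 0.33 on the log2 scale (adjusted p = 0.000684). After 6 h the control reached 905 and 913 CPM, above every other library, and cKO stayed at 363 and 281 CPM. The groups do not overlap at 3 or 6 h, and the order of control and cKO turned between those times.

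The other 4 models moved with Gm10800. At 3 h all 5 rose in cKO, by 2.72 to 3.72 on the log2 scale, and at 6 h all 5 were lower in cKO, by -2.17 to -1.37. For Gm26870 the values were 3.72 ± 0.31 at 3 h (adjusted p = 1.31e-12) and -1.37 ± 0.24 at 6 h (adjusted p = 1.23e-05). It stood at 0.903 and 0.533 CPM in the control against 9.88 and 8.95 CPM in cKO at 3 h. At 6 h it stood at 9.65 and 12.5 against 5.25 and 4.41 CPM. Without cKO 6 h replicate 2, Gm10800 and Gm21738 missed the threshold at 6 h (-1.45, adjusted p = 0.0553, and -1.67, adjusted p = 0.0552). Both directions held when libraries were scaled to the spike-ins.

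From 3 to 6 h of drug the 5 models rose in the control by 4.12 to 4.74 on the log2 scale. In cKO 1 of them passed the test over the same interval, Gm26870, with a fall of 0.97 ± 0.23 (adjusted p = 0.00118), and Gm10800 changed by -0.05 ± 0.30 (adjusted p = 0.92). The difference between those changes was -4.34 ± 0.45 for Gm10800 (adjusted p = 0.000885) and -5.09 ± 0.39 for Gm26870 (adjusted p = 2.21e-12), and all 5 models passed. Without cKO 6 h replicate 2, Gm26870's fall in cKO was 0.83 and missed the threshold (adjusted p = 0.0915).

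A wider search found 13 gene models that share at least 10% of their 25-base words with Gm10800. Summed over them, satellite reads in the control were 24.5 ± 0.443 CPM at 0 h, 71.3 ± 31.2 at 3 h and 1246 ± 7.97 at 6 h (SD, n = 2), and in cKO 136 ± 45.0, 472 ± 39.7 and 422 ± 75.0 CPM. Per 1000 spike-in reads the means were 31.3, 64.9 and 964 in the control and 137, 1717 and 226 in cKO. The cKO level at 6 h against 3 h thus depends on the scale, nearly level in CPM and lower per spike-in, whereas the control rise appears on both.

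In the Mettl3 experiment the same sum was 186 ± 21.2 CPM in the control, 314 ± 29.8 in KO1 and 649 ± 71.0 in KO2 (SD, n = 2). Gm10800 stood at 161 and 134 CPM in the control, 247 and 217 in KO1, and 518 and 441 in KO2. Gm21738 was lower in KO1 than in KO2 by -1.36 ± 0.08 on the log2 scale (adjusted p = 7.46e-26), and Gm10801 by -1.47 ± 0.12 (adjusted p = 3.25e-18). All 5 models passed this test in that direction. The value of Gm10800, -1.06 ± 0.16 (adjusted p = 0.0141), missed the threshold without KO1 replicate 1 (-1.15, adjusted p = 0.0753), KO1 replicate 2 (-0.96, adjusted p = 0.097) or KO2 replicate 1 (-0.92, adjusted p = 0.0532).

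**Figure D2:**
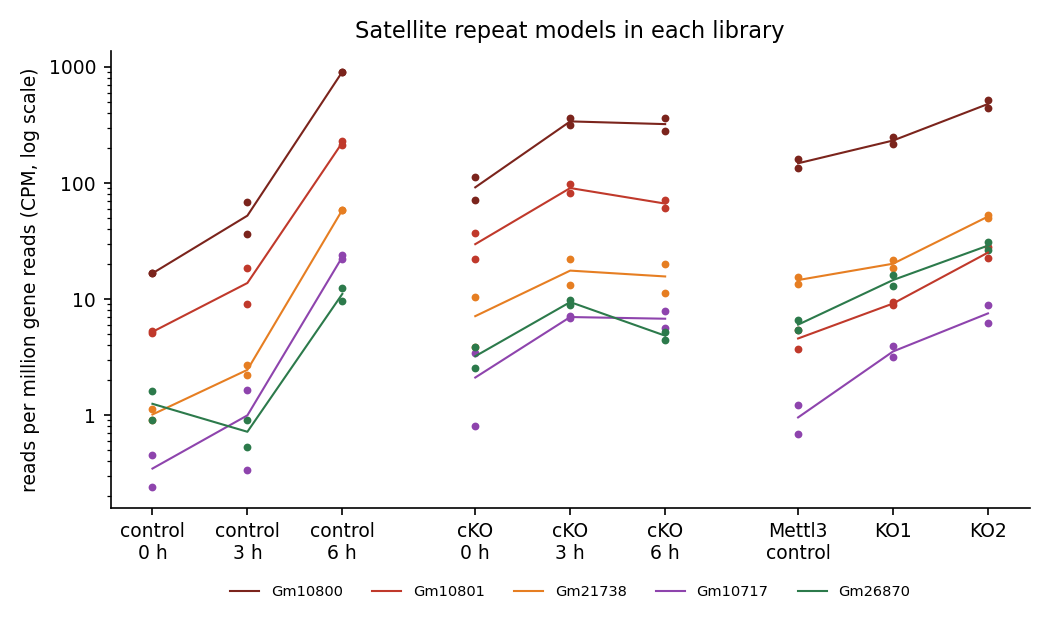
CPM of the 5 satellite models (log axis) in each library, with lines through the means of 2 libraries per group. The control lines climb from 3 to 6 h, where Gm10800 reaches 905 and 913 CPM, the cKO lines start higher at 0 h and end lower at 6 h, and KO2 lies above KO1 and the Mettl3 control.

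A test that the rule did not use is cKO against control after transcription was blocked. At 3 h, 39 of 70 members rose in cKO and 0 fell, beside 22.3% of all tested genes called higher and 20.7% called lower. The median log2 change of members was 0.98, beside 0.01 for all genes. At 6 h, 32 members rose and 5 fell, the satellite models, beside 19.7% and 22.7% of all tested genes, with a median of 0.82 beside -0.02. Without the satellite models 34 of 65 rose at 3 h and 32 of 65 at 6 h, and 0 fell. The genes past the Ythdc1 threshold only, 785 of them tested, had like shares, with 49.8% called higher at 3 h and 44.7% at 6 h. Of the 617 genes past the Mettl3 threshold only, 17.5% were called higher and 29.7% lower at 3 h. Of the members, 25 rose at both 3 and 6 h, 9 at 3 h only, 7 at 6 h only, and 24 passed at neither. The other 5, the satellite models, rose at 3 h and fell at 6 h. How many of all tested genes rose at both times was not counted, so this split is a description. A left-out library moved the count at 3 h between 30 and 40, and without cKO 6 h replicate 2 the 5 falls at 6 h became 3. With spike-in scaling 68 members were higher at 3 h, and at 6 h 21 were higher and 8 lower. Of all 17900 tested genes, that scaling called 16702 higher at 3 h, and 1180 higher and 8330 lower at 6 h.

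**Figure D3:**
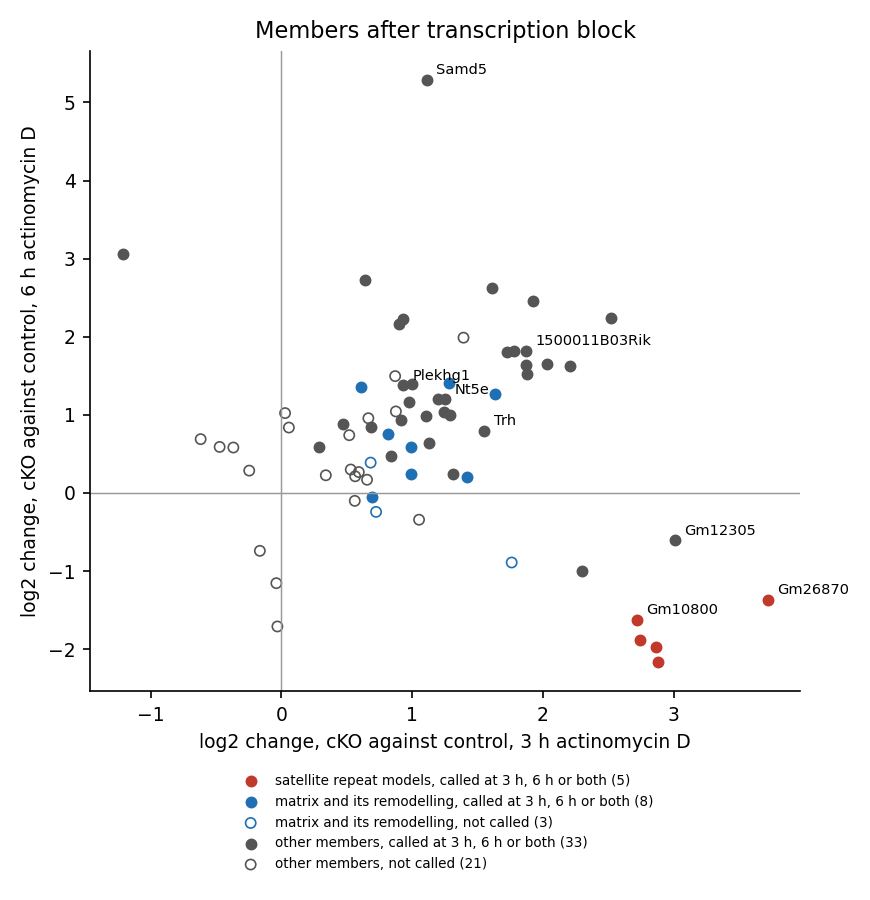
Log2 change in cKO against control at 3 h (x axis) and 6 h (y axis) of actinomycin D for the 70 members; filled points passed the test at 3 h, 6 h or both. Most members lie above 0 on both axes, and the satellite models lie below 0 on the y axis alone; Samd5 had no read in the control at 6 h, so its height there measures no size.

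For reference, in the contrasts that chose the members, 47 members passed the test at 0 h (13.5% of all genes called higher, 15.8% lower), 57 in KO1 (23.9% and 22.2%) and 64 in KO2 (24.4% and 26.4%), all of them upwards. Nothing is read from those counts.

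The members were sorted by hand into roles, which were not tested for enrichment. Counts by role are read against the 22.3% and 19.7% of all tested genes called higher at 3 and 6 h, and the 49.8% and 44.7% of the genes past the Ythdc1 threshold only. A role with 11 members is making or remodelling extracellular matrix. Those described here encode tenascin-C (Tnc), the collagens Col12a1 and Col5a2, the laminin chain Lama2, lysyl oxidase (Lox), which crosslinks collagen, the matricellular proteins Thbs1 and Ccn4, the proteases Adamts1 and Htra1 and the secreted factor Ndnf. At 3 h 7 of the 11 rose in cKO, at 6 h 5 rose, and 0 fell at either time. In the Mettl3 experiment 10 of the 11 were lower in KO1 than in KO2, all but Ndnf. That compares with 21.6% of all tested genes and 52.5% of the genes past the Mettl3 threshold only.

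Thbs1, thrombospondin-1, showed how far the experiments differ in level. It stood at 3.17 and 2.56 CPM in the undrugged Ythdc1 control and 18.0 and 18.7 CPM in cKO, and at 160 and 155 CPM in the Mettl3 control, 212 and 210 in KO1 and 511 and 509 in KO2. After 3 h of drug it was down to 0.828 and 1.60 CPM in the control and 3.39 and 4.16 CPM in cKO, a rise of 1.63 ± 0.31 in cKO (log2, adjusted p = 3.59e-05). The cKO libraries lay above their control at 3 and 6 h without overlap, and the value at 6 h was 1.27 ± 0.35 (adjusted p = 0.00334). Without Control 6 h replicate 1 that value was 0.95 and missed the threshold (adjusted p = 0.0513).

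Tnc, an adhesion-modulating glycoprotein, stood at 0.792 and 0.878 CPM in the control and 5.28 and 5.50 CPM in cKO without drug. At 3 h it stood at 2.26 and 1.80 against 4.23 and 5.47 CPM, and at 6 h at 0.934 and 0.899 against 3.03 and 2.49 CPM. It rose in cKO by 1.28 ± 0.28 at 3 h (adjusted p = 0.000244) and by 1.41 ± 0.39 at 6 h (adjusted p = 0.0035). Both cKO libraries were above both control libraries at 3 and at 6 h.

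Htra1, a secreted serine protease, was the matrix member with the highest level in the Ythdc1 experiment. The control stood at 33.9 and 42.1 CPM without drug, 41.9 and 53.6 at 3 h and 62.5 and 61.0 at 6 h, and cKO at 65.9 and 68.7, 87.3 and 80.1, and 114 and 112 CPM. It rose in cKO by 0.82 ± 0.09 at 3 h (adjusted p = 1.33e-08) and by 0.76 ± 0.09 at 6 h (adjusted p = 7.01e-08).

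Both member collagens rose at 3 h and had no call at 6 h. Col12a1 stood at 2.26 and 2.26 CPM in the control and 4.80 and 4.16 in cKO at 3 h (0.99 ± 0.27, adjusted p = 0.00294), and its value at 6 h was 0.24 ± 0.31 (adjusted p = 0.561). Col5a2 rose by 0.69 ± 0.17 at 3 h (adjusted p = 0.001) and stood at -0.05 ± 0.19 at 6 h (adjusted p = 0.856). Whether those differences between times are changes was tested for each: -0.74 ± 0.41 for Col12a1 (adjusted p = 0.226) and -0.74 ± 0.25 for Col5a2 (adjusted p = 0.0339). The call of Col5a2 was lost without any of Control 3 h replicate 2 (-0.60, adjusted p = 0.164), Control 6 h replicate 1 (-0.64, adjusted p = 0.11), cKO 3 h replicate 1 (-0.78, adjusted p = 0.074), cKO 3 h replicate 2 (-0.68, adjusted p = 0.147) and cKO 6 h replicate 2 (-0.56, adjusted p = 0.257).

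The rest of the matrix members were sparser in the Ythdc1 libraries. Lox stood at 1.47 and 0.719 CPM in the undrugged control and 5.83 and 3.32 in cKO, and its value at 3 h, 0.68 ± 0.37, did not pass (adjusted p = 0.137). Adamts1, a metalloprotease that cleaves proteoglycans, passed at 6 h alone (1.36 ± 0.48, adjusted p = 0.0199), and lost that call without Control 6 h replicate 2 (0.93, adjusted p = 0.204) or cKO 6 h replicate 1 (1.14, adjusted p = 0.0853). Ccn4, a WNT-induced matricellular protein, was counted with 0 and 1 reads in the undrugged control and 8 and 10 reads in cKO, so its place in the list rests on few reads there. In the Mettl3 experiment its counts were 42 and 34 in the control, 105 and 80 in KO1, and 219 and 208 in KO2. Lama2, given after its values were seen, rose at 3 h (1.42 ± 0.47, adjusted p = 0.013), a call lost without Control 3 h replicate 2 (1.25, adjusted p = 0.115) or cKO 3 h replicate 2 (1.36, adjusted p = 0.0829). Ndnf passed in no tested comparison of cKO and control after drug, of 3 and 6 h, or of KO1 and KO2.

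Fibroblasts, which are often used as feeder cells for stem cells, also make these matrix proteins. The summed level of 10 fibroblast markers was 11.8 CPM in the undrugged Ythdc1 control and 14.6 CPM in cKO, and after drug 31 and 38.2 CPM in the control beside 19.3 and 25.2 CPM in cKO at 3 and 6 h. It was higher throughout the Mettl3 experiment: 224 and 207 CPM in the control, 193 and 197 in KO1 and 511 and 509 in KO2. In the Mettl3 control, KO1 and KO2, 6, 7 and 7 of the 10 markers were at 1 CPM or more, and 4 in each Ythdc1 group. Among the 10, Dcn and Lum lay at or near 0 in every group, with means of at most 0.286 CPM. Col1a1 averaged 106, 95.3 and 267 CPM in the Mettl3 control, KO1 and KO2. Between KO1 and KO2 the marker sum and the matrix members moved the same way. So did a longer fibroblast list of 20 genes. Of its 11 tested non-members, 0 were called higher and 10 lower in KO1 than in KO2 (median -1.43). Of all tested genes, 24.5% were called higher and 21.6% lower. The part of such cells in the difference between KO1 and KO2 was not tested. After drug in the Ythdc1 control most of the sum was Pdgfrb, which averaged 18.6 CPM in the control at 3 h and was lower in cKO by -1.33 at 3 h and -0.93 at 6 h. In the Ythdc1 experiment 9 non-members of the longer list were tested. Without drug 3 of them were called higher and 1 lower in cKO (median 0.94), beside 13.5% and 15.8% of all tested genes. At 3 h 2 were called higher and 2 lower (median 0.10), and at 6 h 2 and 3 (median -0.79). The microfibril protein Fbn1 was higher by 0.77 at 3 h and 0.59 at 6 h. The fibroblast genes thus had no common direction in cKO after drug, and the part of such cells in the rise of the matrix members was not tested.

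A wider list of 60 extracellular matrix genes, 6 of them members, was read beside them. Of its 52 tested genes that are not members, 11 were called higher and 25 lower in cKO at 3 h (median -0.13), and 6 and 25 at 6 h (median -0.49). Over all tested genes 22.3% were called higher and 20.7% lower at 3 h, and 19.7% and 22.7% at 6 h. Without drug the lean was the opposite, with 20 of the 52 called higher and 9 lower (median 0.19), beside 13.5% and 15.8% of all tested genes. The collagen gene Col20a1 rose by 2.87 at 3 h (adjusted p = 9.37e-18). Agrin (Agrn) fell by 1.08 at 3 h and by 1.48 at 6 h, and the basement membrane collagen Col4a1 fell by 1.69 at 6 h. Between KO1 and KO2, 9 of those 52 were called higher and 32 lower (median -0.41), with Col1a1 at -1.50 (adjusted p = 6.39e-47). There the members and the other matrix genes leaned the same way.

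**Figure D4:**
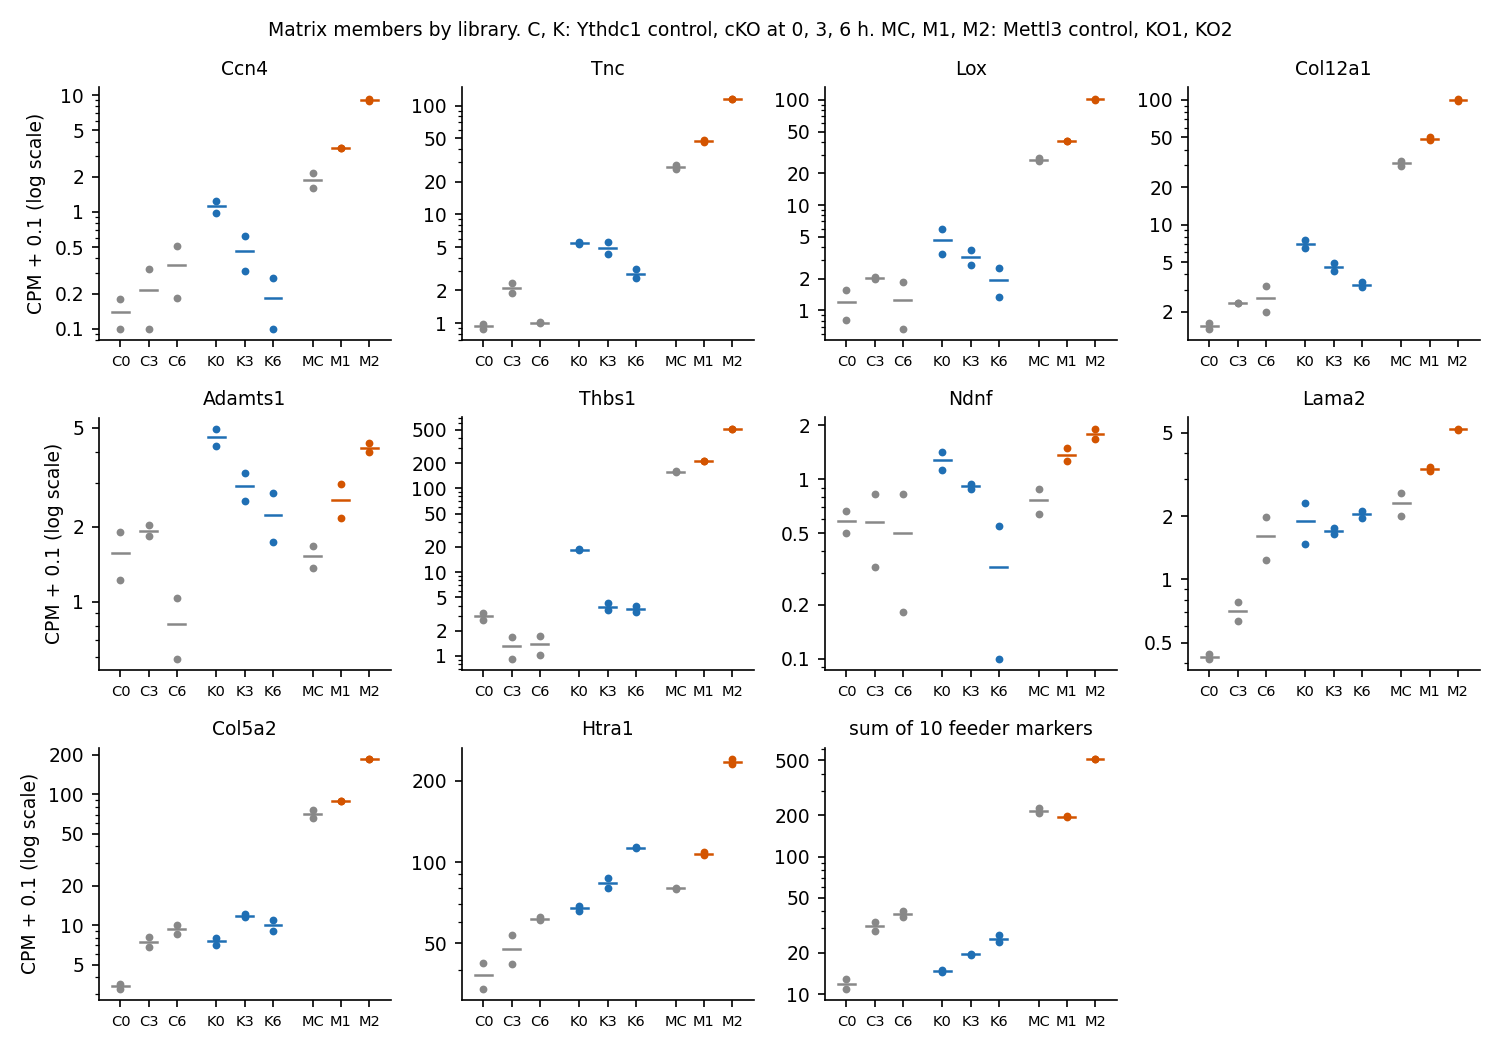
CPM plus 0.1 (log axes, 1 panel per gene) of 10 of the 11 matrix members and of the sum of 10 fibroblast markers in every library; points are libraries and bars are group means. K (cKO) points lie above C (control) points at 0 h, the time the rule used, in most panels, and M2 (KO2) points are the highest of the Mettl3 groups, in the marker sum too (511 and 509 CPM).

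Receptors and other cell surface proteins made up 13 members, of which 7 rose in cKO at 3 h, 7 rose at 6 h and 0 fell. Nt5e (CD73), the enzyme that makes adenosine outside the cell, had the highest level among them. It stood at 14.9 and 16.0 CPM in the undrugged control and 35.8 and 36.5 in cKO, at 7.60 and 8.13 against 17.9 and 19.2 CPM at 3 h, and at 6.95 and 7.76 against 18.4 and 18.4 CPM at 6 h. The rise in cKO was 1.25 ± 0.14 at 3 h (adjusted p = 1.35e-09) and 1.2 ± 0.15 at 6 h (adjusted p = 3.6e-08). In the Mettl3 experiment Nt5e stood at 14.1 and 15.3 CPM in the control, 58.8 and 63.0 in KO1 and 39.6 and 43.2 in KO2.

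Il20rb, a receptor chain for cytokines of the IL-20 family, rose in cKO by 1.87 ± 0.22 at 3 h (adjusted p = 1.03e-08) and 1.52 ± 0.24 at 6 h (adjusted p = 3.1e-06), from 2.03 and 2.33 CPM in the control at 3 h to 7.90 and 8.07 CPM. Bst1 (CD157), an enzyme of the cell surface that cleaves NAD, rose by 1.29 ± 0.24 (adjusted p = 2.49e-05) and 1.00 ± 0.25 (adjusted p = 0.00136). Il1rap, the shared chain of interleukin 1 family receptors, rose by 0.97 ± 0.26 at 3 h (adjusted p = 0.00259), a call that ended without cKO 3 h replicate 1 (0.83, adjusted p = 0.0515). At 6 h it rose by 1.17 ± 0.33 (adjusted p = 0.00404), which was lost without cKO 6 h replicate 2 (0.72, adjusted p = 0.316). The chloride channel Ano1 rose by 0.84 ± 0.21 at 6 h (adjusted p = 0.00137). Cd44, the hyaluronan receptor, more abundant without drug in cKO (4.95 and 5.39 CPM against 1.36 and 2.40), did not pass at 3 h (0.34 ± 0.24, adjusted p = 0.257) or 6 h (0.23 ± 0.29, adjusted p = 0.559). Rnf43, a ubiquitin ligase that removes WNT receptors from the surface, did not pass at 3 h (0.56 ± 0.28, adjusted p = 0.108) or 6 h (-0.10 ± 0.32, adjusted p = 0.83).

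Among 6 further secreted proteins, 3 rose in cKO at 3 h and 3 at 6 h. Pros1, protein S, the cofactor of the anticoagulant protein C, stood at 20.4 and 19.6 CPM in the undrugged control and 43.6 and 42.3 in cKO, at 26.4 and 28.5 against 65.6 and 59.9 CPM at 3 h, and at 25.6 and 28.2 against 67.3 and 67.3 CPM at 6 h. Its rise was 1.2 ± 0.09 at 3 h (adjusted p = 6.92e-14) and 1.21 ± 0.09 at 6 h (adjusted p = 3.17e-13), near the same size at both times. Proc, protein C itself, is a member too, at 0.639 to 2.13 CPM in the Ythdc1 libraries.

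Trh, the precursor of thyrotropin-releasing hormone, was the most abundant member outside the satellite in the Ythdc1 experiment. The control stood at 62.8 and 71.7 CPM without drug, 56.7 and 60.0 at 3 h and 103 and 97.4 at 6 h, and cKO at 131 and 141, 170 and 170, and 173 and 200 CPM. It rose in cKO by 1.55 ± 0.07 at 3 h (adjusted p = 4.72e-19) and by 0.80 ± 0.07 at 6 h (adjusted p = 2.15e-11). The change from 3 to 6 h was smaller in cKO than in the control, by -0.75 ± 0.10 (adjusted p = 8.21e-07). Among the Mettl3 groups Trh was at 407 and 403 CPM in KO1 and at 68.6 and 68.2 in KO2, next to 70.8 and 68.7 in the control, so it is a member through KO1 alone.

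Of 16 intracellular and other coding members, 8 rose at 3 h, 10 rose at 6 h and 0 fell. 1500011B03Rik, a coding gene with no assigned function, rose by 1.87 ± 0.12 at 3 h (adjusted p = 5.41e-15) and by 1.82 ± 0.14 at 6 h (adjusted p = 4.04e-13), from 9.41 and 11.9 to 38.1 and 39.4 CPM at 3 h. Vwa5a rose by 1.11 ± 0.08 at 3 h (adjusted p = 2.36e-13) and 0.99 ± 0.10 at 6 h (adjusted p = 8.44e-11).

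Plekhg1, an exchange factor for small GTPases, stood at 27.9 and 28.3 CPM in the undrugged control and 68.3 and 64.5 in cKO, at 26.3 and 25 against 49.0 and 48.1 CPM at 3 h, and at 16.3 and 14.9 against 42.6 and 44.3 CPM at 6 h. It rose in cKO by 0.93 ± 0.09 (adjusted p = 7.23e-11) and 1.38 ± 0.11 (adjusted p = 1.78e-13). From 3 to 6 h it fell in the control by 0.56 ± 0.11 (adjusted p = 4.79e-05), and the value in cKO was -0.11 ± 0.09 (adjusted p = 0.348). The difference of those changes, 0.45 ± 0.14 (adjusted p = 0.019), missed the threshold without Control 3 h replicate 1 (0.42, adjusted p = 0.0694), Control 6 h replicate 2 (0.39, adjusted p = 0.102), cKO 3 h replicate 1 (0.46, adjusted p = 0.0574), cKO 3 h replicate 2 (0.44, adjusted p = 0.075) or cKO 6 h replicate 2 (0.40, adjusted p = 0.114), and turned negative with spike-in scaling (-1.97).

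Samd9l, an interferon-inducible antiviral gene, rose by 2.23 ± 0.51 at 6 h (adjusted p = 0.000529), from 0.934 and 0.163 CPM in the control to 3.03 and 2.43 CPM. The next 3 genes were picked after their values were seen. Gm20559, a processed transcript 26128 bases from Samd9l on chromosome 6, rose by 1.92 ± 0.26 at 3 h (adjusted p = 1.75e-07) and 2.46 ± 0.37 at 6 h (adjusted p = 1.13e-06). Both were higher in KO1 than in KO2, Samd9l by 0.85 ± 0.20 (adjusted p = 0.000228) and Gm20559 by 1.22 ± 0.29 (adjusted p = 0.000215). Zfhx4, a homeodomain transcription factor, rose by 1.73 ± 0.34 at 3 h (adjusted p = 7.11e-05) and 1.81 ± 0.42 at 6 h (adjusted p = 0.000661), the latter lost without cKO 6 h replicate 2 (1.31, adjusted p = 0.132). Cfap206, a gene of motile cilia, rose by 0.91 ± 0.15 (adjusted p = 3.65e-06) and 0.93 ± 0.17 (adjusted p = 1.88e-05). Of the 4 nuclear and DNA-binding members, Hist3h2a, Zfhx4, Hlf and Onecut2, 2 rose at each time.

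The remaining 15 members are noncoding or TEC models, of which 7 rose in cKO at 3 h, 5 rose at 6 h and 0 fell. Gm43860, a TEC model that overlaps no coding gene (chr5:35551260-35553964, minus strand), was the most abundant in cKO. It stood at 6.90 and 5.75 CPM in the undrugged control and 22.6 and 27.2 in cKO, at 3.99 and 3.53 against 15.1 and 15.3 CPM at 3 h, and at 4.25 and 4.49 against 14.7 and 14.9 CPM at 6 h. The rise was 2.03 ± 0.17 (adjusted p = 3.58e-12) and 1.64 ± 0.19 (adjusted p = 3.28e-09). In the Mettl3 groups it stood at 3.72 and 5.07 CPM in the control, 11.5 and 10.2 in KO1 and 9.16 and 9.42 in KO2, and KO1 and KO2 did not differ beyond their spread (0.21 ± 0.14, adjusted p = 0.203).

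A further 11 of these models lie within a coding gene, 10 of them on its strand, where reads from the host's introns and reads from a separate transcript cannot be told apart. The hosts were read beside the models, and those named were picked after their values were seen. In KO1 8 of the 11 hosts and in KO2 10 of the 11 were called higher than the control, and 0 lower, beside 23.9% and 24.4% of all tested genes called higher. The models were chosen on those same contrasts and may share reads with their hosts, so nothing is read from the hosts' values there. In cKO 5 hosts were called higher and 1 lower at 3 h, and 3 higher and 1 lower at 6 h, the latter near the background of 19.7% called higher. Cttnbp2, which encodes a cortactin-binding protein and holds Gm43843, rose by 1.85 at 3 h (adjusted p = 1.36e-12), beside 2.20 ± 0.66 for the model (adjusted p = 0.00667). Ntn1, netrin-1, which holds Gm12305, rose by 0.78 at 3 h (adjusted p = 5.34e-12), and Gm12305 itself was counted with 0 and 1 reads in the control and 3 and 9 in cKO. Lef1, a transcription factor of the WNT pathway and host of Gm42449, fell in cKO at 3 h by 0.45 (adjusted p = 0.00238), where the model stood at -0.17. Gm38162, on the opposite strand of Kansl1l, rose in cKO by 1.13 ± 0.20 at 3 h (adjusted p = 2.1e-05), where Kansl1l stood at -0.47 (adjusted p = 0.209).

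Between 3 and 6 h of drug the shares of members called changed lay near or below those of all tested genes. Members are sparse, which limits calls, so nothing is read from the lower shares. The genes past the Ythdc1 threshold only had a like median level, 1.92 CPM in the undrugged control. Of those tested, 10.4% were called higher and 9.17% lower in the control, and 9.55% and 10.4% in cKO. From 3 to 6 h in the control 13 members rose and 7 fell, beside 20% and 18.5% of all tested genes, and the median was 0.01. In cKO 6 rose and 7 fell, beside 15.3% and 18.8%, with a median of -0.20. From 0 to 3 h, 11 members rose and 14 fell in the control (median 0.32, beside 29.3% and 27.1% of all tested genes) and 13 rose and 21 fell in cKO (median -0.37, beside 29.6% and 29.8%). Without the satellite models 8 rose and 21 fell in cKO (median -0.52). Those contrasts share the 0 h libraries that chose the members, so nothing is read from them. The difference between the 3 to 6 h changes was called positive for 2 members and negative for 7, beside 8.51% and 10.7% of all tested genes. The 2 are Plekhg1 and Gm40853, a pseudogene named after its values were seen (1 and 1 reads in the control at 6 h), and the 7 are the 5 satellite models, Trh and Col5a2. Gm38162 fell in both genotypes, by 1.06 ± 0.29 in the control (adjusted p = 0.00343) and by 1.55 ± 0.23 in cKO (adjusted p = 1.26e-06). Htra1 rose in both relative to other genes, by 0.52 ± 0.10 (adjusted p = 4.63e-05) and 0.47 ± 0.09 (adjusted p = 0.000104). Neither rise held with spike-in scaling, where its value was 0.13 in the control (adjusted p = 0.301) and -2.33 in cKO.

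These smaller counts rest on single libraries. In the control, 13 became 8 without Control 3 h replicate 2, and 7 became 4 without either Control 3 h library and 2 without Control 6 h replicate 2. In cKO, 6 became 2 without cKO 6 h replicate 2 or without either cKO 3 h library, and 7 became 3 without cKO 6 h replicate 2. The 2 positive differences became 0 without cKO 6 h replicate 2 and 1 without Control 3 h replicate 1 or either cKO 3 h library. With spike-in scaling the counts were 8 and 17 in the control, 0 and 70 in cKO, and 0 and 55 for the difference. Of all 17900 tested genes that scaling called 812 and 7326, 1 and 17412, and 4 and 16093. With library size alone the counts were 10 and 9 in the control, beside 2211 and 4807 of all tested genes.

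KO1 and KO2, compared with each other, give a contrast without the shared Mettl3 control. In KO1 10 members were called higher and 36 lower than in KO2, beside 24.5% and 21.6% of all tested genes, with a median of -0.68 beside 0.00 for all genes. The rule allows this, since it took the mean of both lines: 24 members reached a log2 ratio of 0.8 in each line, 35 in KO2 alone and 11 in KO1 alone. Of the genes past the Mettl3 threshold only, 52.5% were lower in KO1 than in KO2. Lower in KO1 were all 5 satellite models and 10 of the 11 matrix members.

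Bst1 was the member farthest below 0, at 0.978 and 0.656 CPM in the control, 1.10 and 1.24 in KO1 and 6.35 and 5.68 in KO2 (-2.38 ± 0.26, adjusted p = 6.89e-13). KO1 was close to the control there. Ntm, an adhesion protein of neurons, followed at -2.01 ± 0.22 (adjusted p = 1.37e-12), and Hist3h2a, a histone gene, lay at -1.73 ± 0.26 (adjusted p = 4.85e-08). Thbs1 lay at -1.29 ± 0.03 (adjusted p = 2.15e-47), Htra1 at -1.14 ± 0.04 (adjusted p = 1.04e-38) and Plekhg1 at -1.34 ± 0.07 (adjusted p = 6.6e-30). On the other side, Trh was higher in KO1 by 2.55 ± 0.04 (adjusted p = 6.53e-63). Ano1 followed by 1.96 ± 0.22 (adjusted p = 4.49e-12), at 1.57 and 1.44 CPM in the control, 7.84 and 6.18 in KO1 and 1.61 and 1.98 in KO2, and Nt5e by 0.54 ± 0.07 (adjusted p = 3.73e-11). Fhit, given after its values were seen, stood at 0.587 and 1.31 CPM in the control, 3.52 and 3.6 in KO1 and 0.844 and 0.969 in KO2 (1.96 ± 0.31, adjusted p = 1.55e-07). It reached the minimum of 1 CPM in KO1 alone, so the rule favoured its place on that side.

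**Figure D5:**
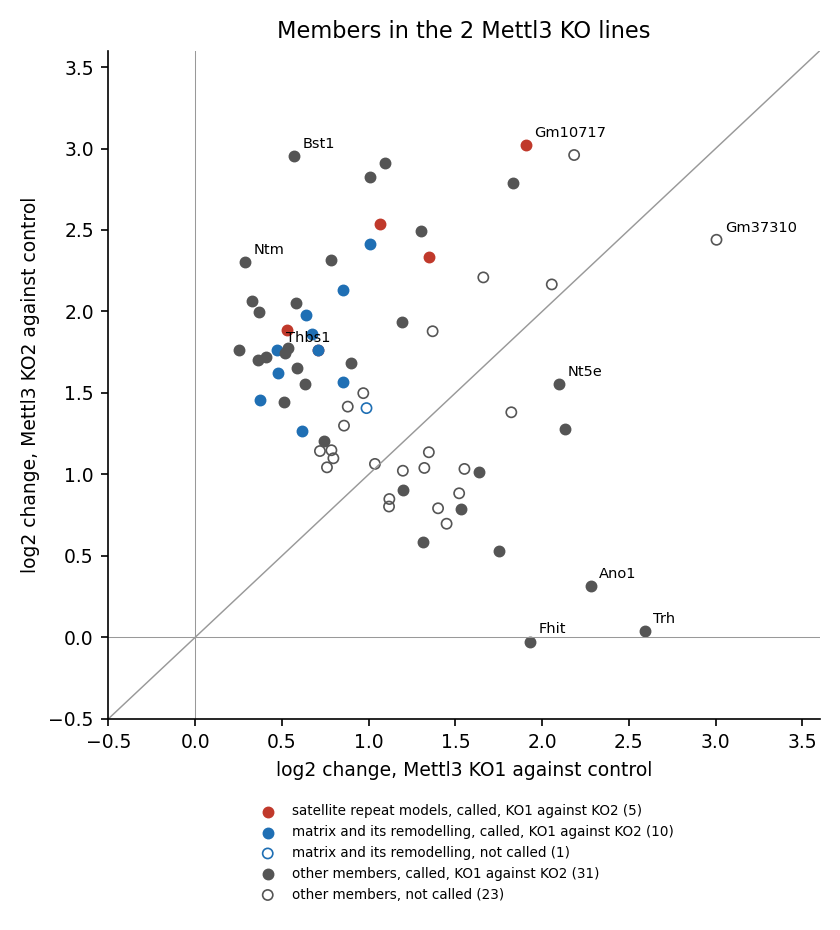
Log2 change in KO1 (x axis) and KO2 (y axis) against the Mettl3 control for the 70 members, with the line of equal change; filled points passed the test of KO1 against KO2. Because both axes share the control, only the distance from the line is read: 36 filled points lie above it and 10 below, Trh, Ano1 and Fhit farthest below.

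Of 27 gene lists read beside the members (pluripotency, lineages, 2-cell-like state, m6A machinery, transposon and heterochromatin silencing, signalling, stress and others), 22 held no member and 5 held 9 members between them. Besides the matrix list these included the fibroblast list (Tnc, Lox, Col5a2), adhesion and cytoskeleton (Cd44) and WNT (Rnf43). Members are 70 of 14028 eligible genes and the lists hold 19 to 60 genes each. A list without a member is therefore the usual case, and nothing is read from the empty lists. The 5 markers of the 2-cell-like state, at which stem cells resemble the early embryo, summed to 53.3 CPM in the undrugged Ythdc1 control and 134 CPM in cKO, but to 26.1 CPM in the Mettl3 control, 9.29 in KO1 and 16.3 in KO2, and none of them is a member.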

How the data were processed

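Raw read counts per gene were deposited by the authors for each of 18 libraries. Per the submitters' processing notes, CASAVA, Trimmomatic 0.38, HISAT2 2.1.0 and HTSeq were used with mm10; the sources used here give neither a strand setting nor a gene model release. Counts were scaled to CPM on gene reads alone, without spike-ins and without the lines for unassigned reads, where reads in no gene were 19.9% to 55.3% of gene reads and those together. Symbols, biotypes, positions and transcript sequences came from GENCODE M21, which lacked 37 of 54446 gene IDs.

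The 12 Ythdc1 libraries and the 6 Mettl3 libraries were each fitted with edgeR 4.0.16 (R 4.3.3), with TMM scaling, the default filter on low counts, robust quasi-likelihood F tests and Benjamini-Hochberg adjustment over all genes tested. The code was tested on simulated counts. Errors are SE of log2 changes or SD, n = 2 libraries per group. The SE was taken from the F test, as the size of the log2 change over the square root of F.

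The members, the gene lists and the roles were chosen with earlier results of these data known. The rule for naming genes picked 41 members: the 20 farthest inside the thresholds and the 3 nearest to them, the largest called changes of members with a mean of at least 50 reads, and members of the lists, with up to 2 called non-members per list. Not all of these are described, and Ceacam2, Olfr983 and Ankrd33b are among those left out. Others were named after their values were seen. Alternatives were other scalings, filters, DESeq2 1.42.0, a replicate block and each library left out. 1 member was left out of the text and of the plot of matrix genes and is not reported here, though the counts include it.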

Additional observations from a re-analysis of the deposited data

Results flagged for a closer look

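Members are listed here where the change from 3 to 6 h of actinomycin D differed between cKO and control, or where KO1 and KO2 differed, by edgeR's quasi-likelihood test with Benjamini-Hochberg adjustment. For the first, the difference (cKO minus control, log2) was called positive for 2 members and negative for 7. The satellite models made up 5 of the 7, Gm26870 at -5.09, Gm21738 at -5.04, Gm10717 at -4.84, Gm10801 at -4.63 and Gm10800 at -4.34, and Trh followed at -0.75. Plekhg1 stood at 0.45.

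For KO1 against KO2, 10 members were higher in KO1 and 36 higher in KO2. Among members with a mean of at least 50 reads, the largest values towards KO1 were those of Trh (2.55), Ano1 (1.96), Samd9l (0.85), Fbxw10 (0.75), Pgc (0.73) and Gm12305 (0.62). The largest towards KO2 among them were those of Bst1 (-2.38), Ntm (-2.01), Hist3h2a (-1.73), Gm10801 (-1.47), Ccn4 (-1.41) and Gm21738 (-1.36). Members with fewer reads, named after their values were seen, lay as far out: Fhit (1.96) and Gm20559 (1.22) towards KO1, and Gm42888 (-1.82), Pdzrn4 (-1.82), Samd5 (-1.63), Proc (-1.53), St8sia4 (-1.51) and Gm40853 (-1.47) towards KO2. By group means, Fhit reached the minimum of 1 CPM in KO1 alone. Gm42888, Pdzrn4, Samd5, Proc and Gm40853 reached it in KO2 alone. The rule thus favoured the side on which these members lie, and nothing is read from it. Fbxw10 lost its call without KO1 replicate 2 (0.62) or KO2 replicate 2 (0.50), Pgc without KO2 replicate 1 (0.59) and Gm12305 without KO2 replicate 2 (0.52).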

How the results depend on the processing

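With spike-in scaling, 68 members were higher in cKO at 3 h, and 21 were higher and 8 lower at 6 h. From 3 to 6 h 8 rose and 17 fell in the control, and 0 rose and 70 fell in cKO. The difference was positive for 0 and negative for 55, and 6 were higher in KO1 than in KO2. Of all 17900 tested genes, the same scaling called 16702 higher at 3 h, and 1180 higher and 8330 lower at 6 h. From 3 to 6 h it called 812 up and 7326 down in the control, and 1 up and 17412 down in cKO. The difference was positive for 4 genes and negative for 16093, and 1663 of 21802 genes were higher in KO1 than in KO2. Spike-in scaling turned the 3 to 6 h change in cKO of Ano1 (-2.24), Htra1 (-2.33), Pgc (-1.48), Pglyrp1 (-2.19) and Trh (-2.62). It also turned the difference for Plekhg1 (-1.97) and KO1 against KO2 for Vwa5a (-0.0829). With at least 50 reads in 2 libraries, which left 38 members tested, 8 rose in the control and 1 difference was positive. DESeq2's Wald test called 8 rises and 3 falls in the control, 4 falls in cKO and 1 positive difference. At least 2-fold in both experiments held for 40 members, and TMM-scaled values put 82 genes past the thresholds, 68 of them members. The causes were not tested.

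With 1 library left out, where a lone library is assumed to vary like the other groups, members higher in cKO numbered 30 to 40 at 3 h and 23 to 32 at 6 h, and members lower 0 and 3 to 6. Rises and falls numbered 8 to 13 and 2 to 9 in the control and 2 to 6 and 3 to 8 in cKO, positive and negative differences 0 to 3 and 6 to 8, and members higher and lower in KO1 than in KO2 7 to 13 and 31 to 37. Of values of single members, 131 of those with a library left out and 60 under other settings missed the threshold, and 1393 and 983 stayed on their side.

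Replicate numbers did not pair the samples (correlations of deviations -0.0459 to 0.198). With the replicate block, 39 members were higher at 3 h, 32 higher and 5 lower at 6 h, 13 rose and 6 fell in the control, 6 rose and 6 fell in cKO, the difference was positive for 2 and negative for 7, and 10 and 36 differed between KO1 and KO2. Without the cKO 3 h libraries, an alternative chosen after seeing the data, 32 were higher and 5 lower at 6 h, and 12 rose and 6 fell in the control. Depth limits the 54 members under 10 CPM in cKO at 0 h.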
